A study of Arabidopsis thaliana with 12 samples.

Results

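The genes of tryptophan synthesis were followed through 4 genotypes of Arabidopsis thaliana. Members were chosen by locus code, 10 of the 33331 genes in the table, and cover every step from chorismate to tryptophan: ASA1 (AT5G05730), ASB1 (AT1G25220), TRP1 (AT5G17990), PAI1 (AT1G07780), PAI2 (AT5G05590), PAI3 (AT1G29410), IGPS (AT2G04400), TSA1 (AT3G54640), TSB1 (AT5G54810) and TSB2 (AT4G27070). RNA came from whole shoots of 2-week-old plants kept in constant light of 100 µmol at 22 °C and 50% humidity, with no treatment named, and was counted by 3′ RNA-seq, which tags each transcript near its end. There were 3 libraries each of wild type Col-0, of aig2abc, which by its name combines mutations of AIG2A (AT3G28930), AIG2B (AT3G28940) and AIG2C (AT3G28950), of pad4, a mutant of the defence regulator PAD4, and of aig2abc pad4. The labels do not describe the alleles or lesions, nor whether replicate libraries stand for plants grown apart, so the p-values speak only of the spread among the libraries at hand.

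Plants make tryptophan in plastids from chorismate, the end product of the shikimate pathway. Anthranilate synthase commits chorismate to this branch, a phosphoribosyl group is added and rearranged, the indole ring is closed, and tryptophan synthase joins indole to serine. In Arabidopsis, tryptophan feeds protein synthesis and is also the start of auxin, of indole glucosinolates and of camalexin, the indole phytoalexin of leaves under pathogen attack.

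The libraries held 584342 to 10697612 counts, and the shallowest was aig2abc replicate 2, in which single members had 1 to 154 counts. AIG2C was at 0 to 1.48 CPM (counts per 1e6 of the TMM-normalized library total) in the 6 libraries with aig2abc mutations and at 26.4 to 55.9 CPM in the others. AIG2A was not lower in either genotype with aig2abc mutations, at 77.2 to 109 CPM in aig2abc against 62.6 to 73.2 in Col-0. In aig2abc pad4 it was at 209 to 227 CPM, above the 46.8 to 50.5 of pad4 (log2 2.129 ± 0.225; edgeR's quasi-likelihood test, adjusted p = 7.5e-06). For AIG2A the 3′ counts do not check the labels. AIG2B differed between the genotypes with aig2abc mutations: it was at 575 to 838 CPM in aig2abc, overlapping the 500 to 963 of Col-0, but at 84.5 to 353 in aig2abc pad4, below the 579 to 1260 of pad4 (log2 -2.40 ± 0.45; adjusted p = 0.0032). PAD4 was at 2.68 to 8.14 CPM in the 6 libraries with the pad4 mutation and at 17.1 to 56.7 in the others. The 6 markers of green shoot summed to 18900 to 24400 CPM in Col-0, 11500 to 13600 in aig2abc, 21000 to 28200 in pad4 and 16000 to 18600 in aig2abc pad4, with none at 0. Root markers summed to 13.5 to 39.2 CPM, with 3 of 8 at 0 in every library. Flower markers, 1 of 5 at 0 throughout, summed to 5.25 to 9.65 CPM in aig2abc and to 1.3 to 3.32 in the other genotypes. The aig2abc sum rested on 5 to 18 counts a library and mostly on PI, at a mean of 5.75 CPM against 0.97 in Col-0. AP3 went the other way, with 0 counts in aig2abc and 6 in Col-0, and AG and SEP3 had 5 and 3 counts in aig2abc. In bulk shoots, fewer cells of a type and less RNA per cell cannot be told apart, and the part of these marker shifts in the results below was not tested.

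Most tryptophan synthesis transcripts were higher in plants with the aig2abc mutations, both with and without PAD4. In aig2abc against Col-0, 6 of the 10 members rose and 0 fell in edgeR's quasi-likelihood test at a Benjamini-Hochberg adjusted p of 0.05: ASB1, TRP1, PAI1, PAI2, IGPS and TSA1. Over all 15082 genes tested, 18% rose and 19.5% fell in this comparison. In aig2abc pad4 against pad4, 6 members again rose and 0 fell, here ASA1, ASB1, TRP1, IGPS, TSA1 and TSB1, where 3.34% of all genes rose and 0.663% fell. That count was 3 without pad4 replicate 2, when ASA1, TRP1 and TSB1 did not pass. The median member changed by a log2 of 1.09 in the first comparison and of 1.47 in the second, beside medians over all genes of -0.09 and -0.02. ASB1, TRP1, IGPS and TSA1 rose in both, and their 3 libraries with aig2abc mutations all lay above the 3 without in each background, as held for 23.7% and 10.1% of all genes, while 28.1% and 8.18% of all genes lay wholly lower. These shares are for each comparison alone, and the share of all genes that rose in both was not counted. Together the 10 genes took 115 to 141 CPM in Col-0, 377 to 438 in aig2abc, 98.4 to 121 in pad4 and 285 to 400 in aig2abc pad4.

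**Figure D1:**
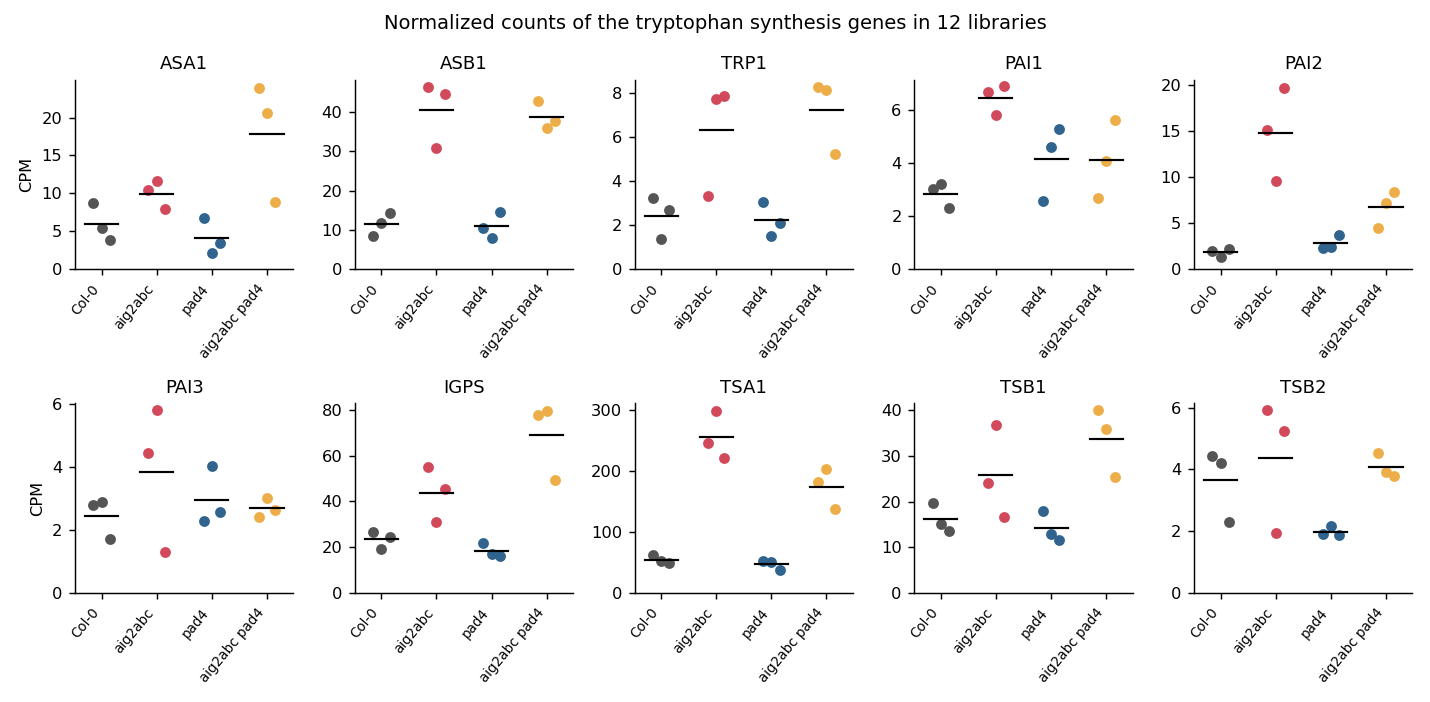
Level of each of the 10 genes in CPM (vertical axis of each panel, starting at 0) in the 3 libraries of each genotype (horizontal axis), with a bar at the mean of the 3. TSA1 and ASB1 sit high in both genotypes with aig2abc mutations, at 138 to 297 CPM and 30.9 to 46.3 CPM, and PAI2 stands highest in aig2abc, at 9.65 to 19.7 CPM.

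Anthranilate synthase, the first and feedback-inhibited enzyme, is built from an alpha subunit that binds chorismate and a beta subunit that supplies ammonia from glutamine. ASA1, the inducible alpha subunit, read 8.77, 5.4 and 3.89 CPM in Col-0 replicates 1 to 3 and, in the same order, 10.4, 11.6 and 7.88 CPM in aig2abc. The pad4 libraries read 6.78, 2.07 and 3.51 CPM, and those of aig2abc pad4 23.9, 20.6 and 8.88 CPM. The aig2abc and Col-0 libraries overlapped, while every aig2abc pad4 library lay above every pad4 library. ASA1 rose 4.28-fold in the pad4 background (log2 2.099 ± 0.43, SE; adjusted p = 0.00676), a call that moved to an adjusted p of 0.0502 without pad4 replicate 2. Its value of 0.66 ± 0.48 in aig2abc against Col-0 did not pass (adjusted p = 0.293).

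ASB1, the beta subunit, was at 8.33, 11.8 and 14.2 CPM in Col-0, 46.3, 30.9 and 44.6 in aig2abc, 10.4, 8.04 and 14.6 in pad4, then 42.8, 35.9 and 37.8 in aig2abc pad4. All 6 libraries with aig2abc mutations lay above all 6 without. The rise was 3.65-fold in aig2abc (log2 1.87 ± 0.29; adjusted p = 0.000234) and 3.52-fold in the pad4 background (1.82 ± 0.28; adjusted p = 0.000463). Reads at the 3′ end of ASB1 could be shared: of 451 runs of 50 bases in its last 500, 75.8% recur in transcripts of 8 other annotated genes, led by AT1G24800 (62.3%) and AT1G25150 (58.1%) and including the beta-subunit copy ASB3 (31.7%). All but 1 of the 8 had 0 counts in every library, and how shared reads were counted is not given in the sources used here. The exception, AT1G25211, which overlaps ASB1 and shares 27.5% of the runs, rose in aig2abc (2.76 ± 0.67; adjusted p = 0.00474) and was at -0.33 ± 0.67 in the pad4 background (adjusted p = 0.916).

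TRP1 encodes anthranilate phosphoribosyltransferase, the second enzyme, whose mutants glow blue under ultraviolet light from stored anthranilate. Its level was 3.22, 1.35 and 2.69 CPM in Col-0, 3.34, 7.72 and 7.88 in aig2abc, 3.06, 1.49 and 2.11 in pad4, then 8.27, 8.14 and 5.26 in aig2abc pad4. Groups did not overlap, though aig2abc replicate 1 lay just above the highest Col-0 library. TRP1 rose 2.41-fold in aig2abc (log2 1.27 ± 0.46; adjusted p = 0.0396) and 3.23-fold in the pad4 background (1.69 ± 0.40; adjusted p = 0.0204). The first call was lost without any 1 of 6 libraries, with adjusted p of 0.12 and 0.0611 without Col-0 replicates 2 and 3, 0.0765 and 0.305 without aig2abc replicates 2 and 3, and 0.0508 and 0.056 without aig2abc pad4 replicates 1 and 2. The second was lost without pad4 replicate 2 (0.121) or 3 (0.0736) and without aig2abc pad4 replicate 1 (0.0762) or 2 (0.0801). The neighbour that overlaps its 3′ end, AT5G18000, had 1 count over all libraries.

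Phosphoribosylanthranilate isomerase, the third enzyme, has 3 genes in Col-0. PAI2 stood at 2, 1.35 and 2.2 CPM in Col-0 and reached 15.2, 9.65 and 19.7 CPM in aig2abc. The pad4 level was 2.29, 2.41 and 3.74 CPM, against 4.52, 7.23 and 8.39 CPM for aig2abc pad4. Each group of libraries with aig2abc mutations lay wholly above its control, and aig2abc lay wholly above aig2abc pad4. In aig2abc the rise was 8.34-fold (log2 3.06 ± 0.39; adjusted p = 5.1e-05), which had the highest fold of the 10 members in this comparison. In the pad4 background the value was 2.36-fold and did not pass (1.24 ± 0.35; adjusted p = 0.0584), although it passed with DESeq2 (adjusted p = 0.0239) and without aig2abc pad4 replicate 1 (adjusted p = 0.0447).

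PAI1 was at 3, 3.2 and 2.3 CPM in Col-0 and at 6.67, 5.79 and 6.89 in aig2abc, with no overlap, and rose 2.35-fold (log2 1.23 ± 0.41; adjusted p = 0.026). That call was lost without Col-0 replicate 1 (0.0559) or 3 (0.0764) and without aig2abc replicate 1 (0.0975) or 3 (0.0939). In the pad4 background PAI1 libraries overlapped, at 2.58, 4.6 and 5.27 CPM in pad4 and 2.69, 4.07 and 5.59 in aig2abc pad4 (-0.02 ± 0.36; adjusted p = 0.994). PAI3, the most diverged copy, ranged from 1.31 to 5.79 CPM over all 12 libraries and passed in neither comparison, at 0.42 ± 0.51 (adjusted p = 0.547) and -0.14 ± 0.42 (adjusted p = 0.95). PAI1 and PAI2 cannot be read as fully separate counts. Their coding sequences are 99.4% identical, 823 of 828 bases. Of the 50-base runs, 66.7% in the PAI1 end and 74.3% in the PAI2 end recur in transcripts of another gene. PAI1 holds 71.6% of the PAI2 runs, and PAI2 holds 25.7% of the PAI1 runs. More of the PAI1 runs, 41%, are in AT5G05580, a gene that overlaps PAI2 and had 77 counts over all libraries. PAI3 shares 0% of its own 3′ runs.

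The sum of PAI1, PAI2 and PAI3 does not depend on how reads were split among the copies. It would depend on reads given to AT5G05580 or dropped because they match several genes. It was 7.77, 7.42 and 6.19 CPM in Col-0, 26.3, 21.2 and 27.9 in aig2abc, 7.17, 11 and 11.6 in pad4, then 9.62, 14.3 and 16.6 in aig2abc pad4. Every aig2abc library stood above all others. As 1 feature the sum rose in aig2abc by a log2 of 1.86 ± 0.30 (adjusted p = 3e-04) and was at 0.44 ± 0.27 in the pad4 background (adjusted p = 0.545).

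IGPS encodes indole-3-glycerol phosphate synthase, which closes the indole ring. Its Col-0 libraries read 26.8, 19.1 and 24.3 CPM, and its aig2abc libraries 55.2, 30.9 and 45.3. Without PAD4, the level was 21.8, 16.9 and 16 CPM in pad4 but 77.9, 79.7 and 49.2 CPM once the aig2abc mutations were added. All libraries with aig2abc mutations lay above all those without. IGPS rose 1.93-fold in aig2abc (log2 0.95 ± 0.28; adjusted p = 0.0135) and 3.78-fold in the pad4 background (1.92 ± 0.27; adjusted p = 0.000211). Without Col-0 replicate 2 or aig2abc replicate 1 the adjusted p in aig2abc was 0.0603 or 0.14. The gene that overlaps IGPS, AT2G04410, passed in neither comparison, at 0.55 ± 0.29 (adjusted p = 0.141) and 0.01 ± 0.29 (adjusted p = 0.996). Its mean level was far above that of IGPS, at 1120 CPM in Col-0, 1640 in aig2abc, 956 in pad4 and 964 in aig2abc pad4. Whether any of its reads were counted for IGPS was not tested.

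Tryptophan synthase is a complex of alpha subunits, which release indole, and beta subunits, which join it to serine. TSA1, the plastid alpha subunit, was at 62, 52.8 and 48.5 CPM in Col-0, 246, 297 and 221 in aig2abc, 52.2, 50.3 and 37.1 in pad4, then 182, 202 and 138 in aig2abc pad4. All 6 libraries with aig2abc mutations lay above all 6 without, and aig2abc lay wholly above aig2abc pad4. TSA1 rose 4.66-fold in aig2abc (log2 2.22 ± 0.25; adjusted p = 2.1e-05) and 3.74-fold in the pad4 background (1.90 ± 0.25; adjusted p = 8.5e-05). Its 3′ end shares 0% of its runs with any other transcript.

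TSB1, the main beta subunit of shoots, was at 19.8, 15 and 13.5 CPM in Col-0 and 24.1, 36.7 and 16.7 in aig2abc, which overlapped (log2 0.57 ± 0.32; adjusted p = 0.161). The pad4 libraries read 18, 13 and 11.6 CPM and the aig2abc pad4 libraries 40.1, 35.9 and 25.5, with no overlap. In that background it rose 2.38-fold (1.25 ± 0.29; adjusted p = 0.0171). That call was lost without pad4 replicate 2 (0.0915) or 3 (0.0801) and without aig2abc pad4 replicate 1 (0.0662) or 2 (0.0521). TSB2, the second beta gene, was at 4.44, 4.22 and 2.3 CPM in Col-0, 5.93, 1.93 and 5.25 in aig2abc, 1.91, 2.18 and 1.87 in pad4, then 4.52, 3.92 and 3.78 in aig2abc pad4. It passed in neither comparison, at 0.47 ± 0.40 (adjusted p = 0.363) and 1.04 ± 0.36 (adjusted p = 0.154), although its aig2abc pad4 libraries all lay above its pad4 libraries. The sum of TSB1 and TSB2 was at 0.55 ± 0.29 in aig2abc (adjusted p = 0.143) and rose by 1.23 ± 0.27 in the pad4 background (adjusted p = 0.0119), a call lost without pad4 replicate 2 (0.0678), pad4 replicate 3 (0.0616) or aig2abc pad4 replicate 1 (0.0525).

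**Figure D2:**
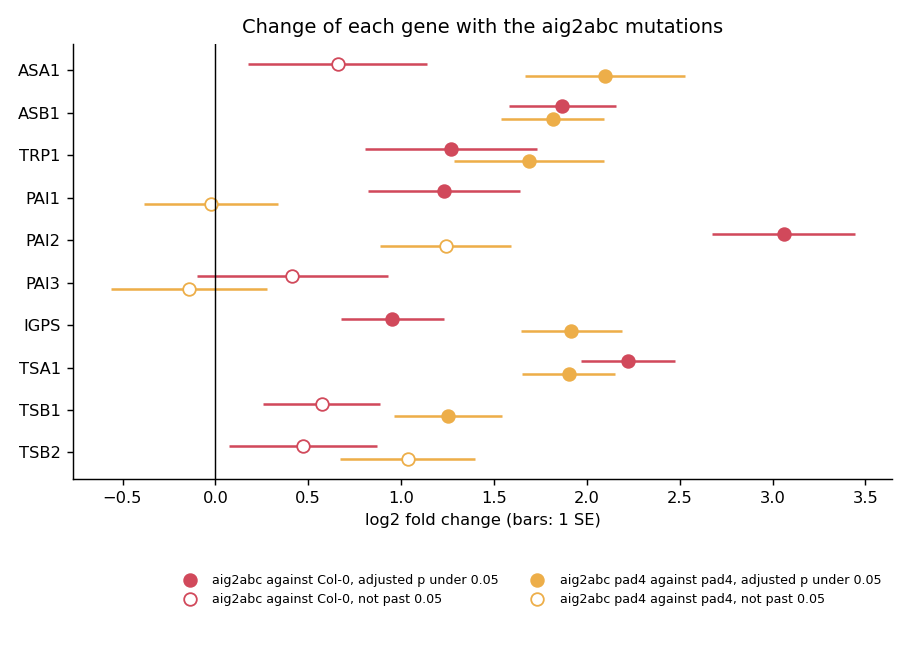
Log2 fold change of each of the 10 genes (horizontal axis, bars 1 SE) in aig2abc against Col-0 (red) and in aig2abc pad4 against pad4 (yellow), filled where the adjusted p was under 0.05. PAI2 lies at 3.06 and 1.24 and ASA1 at 0.66 and 2.099, while ASB1 lies at 1.87 and 1.82.

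The sequence around the annotated start is shown for the 4 members that rose in both backgrounds and for PAI1 and PAI2, near-identical in coding sequence, so that the start regions can be compared. Each is 300 bases of the coding strand from RefSeq assembly TAIR10.1, 250 before the gene start and 50 from it on, printed 5′ to 3′. Capitals mark motifs found on either strand: the W-box cores TTGACC and TTGACT, bound by WRKY factors, the G-box CACGTG, and the TGA element TGACG. The windows are chr1:8839560-8839859 (minus strand) for ASB1, chr5:5956830-5957129 (plus) for TRP1, chr2:1530898-1531197 (plus) for IGPS, chr3:20225474-20225773 (minus) for TSA1, chr1:2412728-2413027 (minus) for PAI1 and chr5:1668520-1668819 (minus) for PAI2.
ASB1: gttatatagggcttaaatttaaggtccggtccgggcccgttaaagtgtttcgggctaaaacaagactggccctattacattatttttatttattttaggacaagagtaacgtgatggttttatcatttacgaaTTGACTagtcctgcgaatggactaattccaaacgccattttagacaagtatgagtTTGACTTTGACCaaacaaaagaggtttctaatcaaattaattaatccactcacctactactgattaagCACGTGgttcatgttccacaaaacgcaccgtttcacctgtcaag
TRP1: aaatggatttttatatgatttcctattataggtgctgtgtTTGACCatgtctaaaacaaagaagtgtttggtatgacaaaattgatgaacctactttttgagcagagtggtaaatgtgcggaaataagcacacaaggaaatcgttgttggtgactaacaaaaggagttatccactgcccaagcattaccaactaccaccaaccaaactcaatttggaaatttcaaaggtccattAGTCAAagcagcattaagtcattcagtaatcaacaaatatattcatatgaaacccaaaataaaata
IGPS: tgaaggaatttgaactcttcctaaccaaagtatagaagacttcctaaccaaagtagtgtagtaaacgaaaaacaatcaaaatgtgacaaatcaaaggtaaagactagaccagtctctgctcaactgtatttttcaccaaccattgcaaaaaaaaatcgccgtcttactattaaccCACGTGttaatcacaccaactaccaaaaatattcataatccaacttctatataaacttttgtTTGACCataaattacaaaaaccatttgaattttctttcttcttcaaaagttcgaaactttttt
TSA1: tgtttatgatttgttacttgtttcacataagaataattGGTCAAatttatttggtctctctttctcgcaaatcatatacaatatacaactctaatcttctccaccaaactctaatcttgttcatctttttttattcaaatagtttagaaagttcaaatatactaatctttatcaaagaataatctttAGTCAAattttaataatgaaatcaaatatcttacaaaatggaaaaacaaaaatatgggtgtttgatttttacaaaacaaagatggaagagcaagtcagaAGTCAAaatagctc
PAI1: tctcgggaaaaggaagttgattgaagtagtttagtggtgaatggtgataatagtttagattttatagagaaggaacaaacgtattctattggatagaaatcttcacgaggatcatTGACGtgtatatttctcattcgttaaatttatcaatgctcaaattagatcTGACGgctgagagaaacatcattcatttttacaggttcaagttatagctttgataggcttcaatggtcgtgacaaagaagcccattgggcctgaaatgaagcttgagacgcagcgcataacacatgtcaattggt
PAI2: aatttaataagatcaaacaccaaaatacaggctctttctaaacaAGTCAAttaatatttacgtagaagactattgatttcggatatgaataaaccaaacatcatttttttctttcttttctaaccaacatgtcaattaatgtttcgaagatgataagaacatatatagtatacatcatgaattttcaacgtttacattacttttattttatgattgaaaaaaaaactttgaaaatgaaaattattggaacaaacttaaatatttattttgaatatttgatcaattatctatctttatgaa

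A W-box core, either TTGACC or TTGACT, was present in the windows of 6 of the 10 members, ASA1, ASB1, TRP1, PAI2, IGPS and TSA1, and in 32.4% of the 27443 windows of the same length before and at all annotated genes searched. TTGACC was in 4 members and in 14.2% of all windows, and TTGACT in 5 members and in 21.8%. In ASB1 the cores stand 117, 62 and 56 bases before the start, and the pair nearest the start lies end to end. The G-box was found in ASB1 and IGPS and in 7.68% of all windows. The GCC box, GCCGCC, searched in the same way, was in 0 members and in 2.57% of all windows. TGACG was found in PAI1 and TSB2 and in 23.1% of all windows. PAI1 has a pair of TGACG and no W-box core in this window, PAI2 has TTGACT and no TGACG, and their windows align with 52.7% identity. A match is a description of letters and not evidence of binding.

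No member passed the test in pad4 against Col-0, where edgeR called 0 of 10, 0.00663% of all genes higher and 0.683% lower. The 10 log2 changes ran from -0.86 ± 0.37 for TSB2 (adjusted p = 0.743) to 0.57 ± 0.38 for PAI2 (adjusted p = 0.887). Those 2 genes had groups that did not overlap, beside 6.37% of all genes wholly lower and 4.38% wholly higher. At an unadjusted p under 0.05, 1 of the 10 was lower (TSB2), and DESeq2 called 0.

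Against Col-0, aig2abc pad4 was higher for ASB1 (log2 1.76 ± 0.28; adjusted p = 0.00119), PAI2 (1.81 ± 0.37; adjusted p = 0.0116), IGPS (1.56 ± 0.27; adjusted p = 0.00288) and TSA1 (1.68 ± 0.25; adjusted p = 0.000612), 4 of 10 members beside 1.42% of all genes higher and 0.325% lower. PAI2 passed neither without Col-0 replicate 2 (0.0774) nor without aig2abc pad4 replicate 2 (0.0579). ASA1, TRP1 and TSB1 also had every aig2abc pad4 library above every Col-0 library, as did 8.47% of all genes beside 8.97% wholly lower, but did not pass, at adjusted p of 0.0785, 0.0648 and 0.0785. All 3 passed without aig2abc pad4 replicate 3.

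Between the genotypes with aig2abc mutations, PAI2 was lower in aig2abc pad4 than in aig2abc (log2 -1.25 ± 0.35; adjusted p = 0.0188), the single member called, where 11.5% of all genes were lower and 12.8% higher. The call was lost without aig2abc replicate 1 (0.0813) or 3 (0.122) and without aig2abc pad4 replicate 1 (0.131) or 2 (0.0765). PAI1 and TSA1 libraries were also wholly lower, as were 18.5% of all genes beside 23.3% wholly higher, at -0.71 ± 0.40 (adjusted p = 0.204) and -0.54 ± 0.24 (adjusted p = 0.108). ASA1 at 0.91 ± 0.47 (adjusted p = 0.159) and IGPS at 0.61 ± 0.27 (adjusted p = 0.11) were at positive values and did not pass.

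The interaction asks whether the aig2abc change differs between plants without and with PAD4, and is given as the log2 change without PAD4 minus that with it. PAI2 was the single member called, at -1.82 ± 0.52 (adjusted p = 0.0311), beside 6.23% of all genes called lower and 8.53% higher. The call was lost in 7 of the 12 fits that left out 1 library each: Col-0 replicates 1 (0.0611) and 2 (0.0626), aig2abc replicates 1 (0.079) and 3 (0.094), pad4 replicate 3 (0.0913) and aig2abc pad4 replicates 1 (0.102) and 2 (0.0805). The sum of PAI1, PAI2 and PAI3 was at -1.42 ± 0.40 (adjusted p = 0.0308), and in 10 of 12 such fits, all but those without pad4 replicate 1 or aig2abc pad4 replicate 3, its adjusted p was above 0.05, up to 0.11. For the other members no difference between backgrounds passed: ASA1 was at 1.44 ± 0.64 (adjusted p = 0.124), IGPS at 0.97 ± 0.38 (adjusted p = 0.0899), PAI1 at -1.26 ± 0.55 (adjusted p = 0.116) and ASB1 at -0.05 ± 0.39 (adjusted p = 0.942). ASA1, PAI1 and IGPS passed without aig2abc pad4 replicate 3, at adjusted p of 0.0239, 0.0493 and 0.0224, and ASA1 also without pad4 replicate 1 (0.0304).

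One axis of variation between replicates moved with some of these genes, against PAI1, and less with others. It was taken as the leading axis of within-group variation of the 9 libraries outside aig2abc and held 52.5% of that variation. Scores were -97.9, -108 and -85 in aig2abc, below every other library, and 33.4, 23.2 and -63.6 in aig2abc pad4. In replicate order Col-0 scored 59.8, -12.3 and -16.2 and pad4 28.7, -16.1 and -36.9. Outside aig2abc the score thus fell from replicate 1 to 3 in each genotype. As a description over the 12 libraries, deviations from the group mean followed the score with a Pearson's r of 0.811 for ASA1, 0.748 for IGPS, 0.71 for TSA1, 0.565 for TSB1 and 0.564 for TRP1. PAI1 ran the other way, at -0.602. The rest were at 0.325 for TSB2, -0.311 for ASB1, -0.28 for PAI2 and -0.09 for PAI3. Of the aig2abc pad4 libraries, replicate 3 had the lowest ASA1, IGPS, TSA1, TSB1 and TRP1 and the highest PAI1 and PAI2. With the score as a covariate, ASA1 in aig2abc against Col-0 was at 2.23 (adjusted p = 0.00158) and TSB1 at 1.21 (adjusted p = 0.0261), while PAI1 was at 0.53 (adjusted p = 0.617) and the PAI2 interaction at -1.36 (adjusted p = 0.371). In aig2abc the axis and the genotype cannot be told apart.

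**Figure D3:**
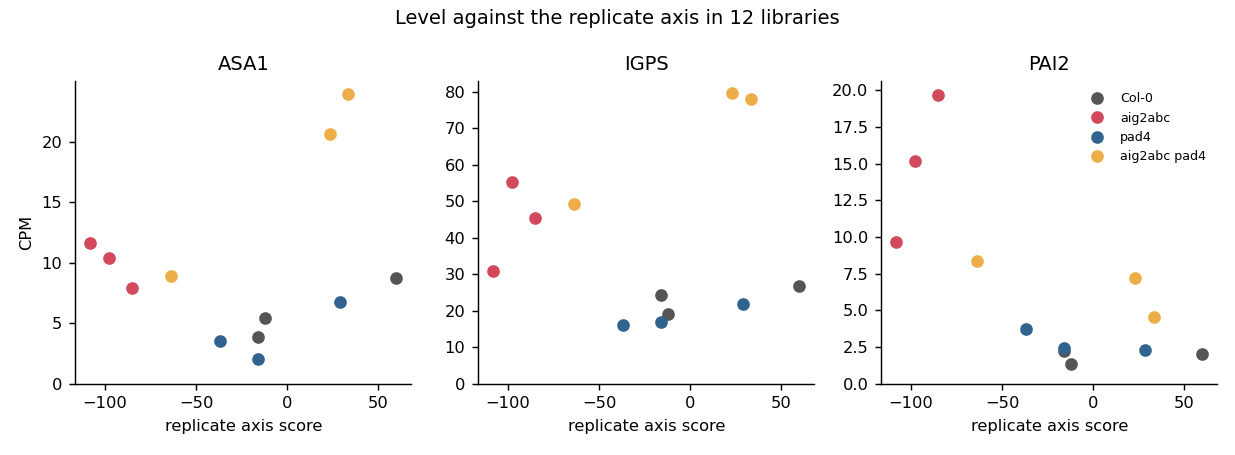
Level in CPM (vertical axes, starting at 0) of ASA1, IGPS and PAI2 against the score of each of the 12 libraries on the replicate axis (horizontal axis, no unit), coloured by genotype. The aig2abc libraries score -108 to -85, and the aig2abc pad4 library at -63.6 has the lowest ASA1 and IGPS and the highest PAI2 of its genotype.

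Averaged over both backgrounds, the ratio between related copies changed with the aig2abc mutations in 2 of 3 pairs. The log2 ratio of ASB1 to its near relative ASB2 was 1.48 higher in libraries with the mutations, averaged over both backgrounds (1.41 with PAD4 and 1.54 without; exact permutation within backgrounds, two-sided, p = 0.005, the smallest this design can give, adjusted over 3 pairs p = 0.015). The ratio of ASA1 to ASA2, the alpha subunit with steadier expression, was 1.54 higher (0.76 and 2.33; exact permutation p = 0.015, adjusted p = 0.0225), and its adjusted p was above 0.05 without pad4 replicate 2 (0.06), pad4 replicate 3 (0.0525) or aig2abc replicate 1 (0.0525). With PAD4 the ASA1 to ASA2 ratios overlapped, at -0.392 to 0.681 in aig2abc and -1.272 to 0.052 in Col-0. Without PAD4 they did not, at -0.098 to 1.565 in aig2abc pad4 and -2.058 to -0.424 in pad4. The ratio of TSB1 to TSB2 was 0.40 higher, within the spread of the libraries (exact permutation p = 0.375, adjusted p = 0.375). ASA2 itself was at log2 -0.03 (adjusted p = 0.948) and -0.33 (adjusted p = 0.685) in the 2 comparisons and ASB2 at 0.52 (adjusted p = 0.309) and 0.31 (adjusted p = 0.816). The coding sequences of ASB1 and ASB2 are 95.3% identical, and those of ASA1 and ASA2 69.3%, of TSB1 and TSB2 85.4%.

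**Figure D4:**
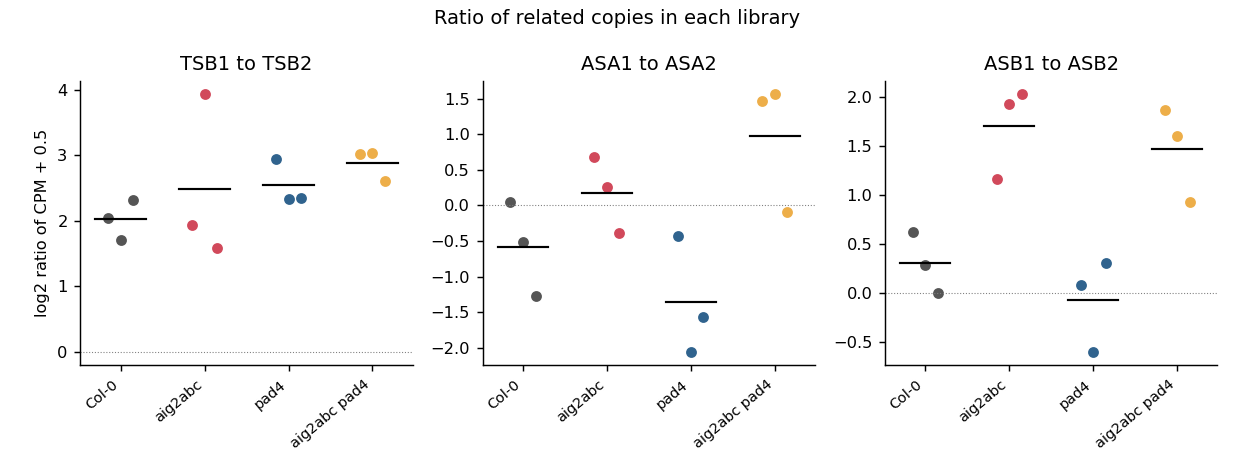
Log2 ratio of CPM + 0.5 between related copies (vertical axis) in each library of the 4 genotypes (horizontal axis), with a bar at the mean of 3. The ASB1 to ASB2 ratio lies between 0.93 and 2.04 in libraries with aig2abc mutations and between -0.61 and 0.63 in the others.

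The genes that supply and share chorismate were counted for comparison. Over all genes tested, 18% rose and 19.5% fell in aig2abc against Col-0. In aig2abc pad4 against pad4, 3.34% rose and 0.663% fell. In aig2abc against Col-0, 4 of 9 tested shikimate pathway genes rose and 1 fell, among them DHS1, the entry enzyme (log2 2.05 ± 0.29; adjusted p = 0.000133), EPSPS, the target of glyphosate (1.89 ± 0.31; adjusted p = 0.000356), and the related AT1G48860 (3.10 ± 0.52; adjusted p = 0.000418). DHS1, EPSPS and AT1G48860 kept their calls in all 12 omissions of a library. With the replicate-axis score as covariate, DHS1 was at 1.273 (adjusted p = 0.00604) and EPSPS at 1.055 (0.045). AT1G48860 was then at 1.108 and did not pass (0.0576), nor did DHS3 (0.882) or DHQ-SDH (0.8). The others, named after their values were seen, lost their calls in some omissions. DHS3, a relative of DHS1, was at 0.92 ± 0.31 (adjusted p = 0.026) and lost its call when Col-0 replicate 1 (0.087), Col-0 replicate 3 (0.0693), aig2abc replicate 1 (0.0965) or aig2abc replicate 3 (0.125) was omitted. DHQ-SDH, the gene that fell, was at -2.16 ± 0.80 (adjusted p = 0.0428) on 4 counts in all of aig2abc, and did not pass with limma-voom (0.195) or without Col-0 replicate 1 (0.239), aig2abc replicate 1 (0.106), 2 (0.0776) or 3 (0.135) or pad4 replicate 2 (0.0503). In the pad4 background 0 of the 9 passed, or 1 without aig2abc pad4 replicate 3, with DHS1 at 0.68 ± 0.28 (adjusted p = 0.251) and EPSPS at 0.41 ± 0.29 (adjusted p = 0.618). Of 12 tested genes of the other chorismate branches, 2 rose and 1 fell in aig2abc, no larger a share than over all genes. ICS1, of salicylic acid synthesis, was at 2.43 ± 0.35 (adjusted p = 0.000156). The chorismate mutase CM1 was at 1.13 ± 0.41 (adjusted p = 0.0368) and ADT6, of phenylalanine synthesis, at -3.68 ± 0.66 (adjusted p = 0.000659). CM1 lost its call when Col-0 replicate 1 (0.139), Col-0 replicate 2 (0.0668), aig2abc replicate 1 (0.294) or aig2abc replicate 3 (0.072) was left out. In the pad4 background 0 of the 12 passed, and ICS1 was at 0.90 ± 0.35 (adjusted p = 0.207). At an unadjusted p under 0.05, 3 of the 9 shikimate genes were higher in that background and 2 of the 12 higher and 1 lower, and DESeq2 called 0 of either list. The tryptophan synthesis genes stood at 6 of 10 there, or at 3 without pad4 replicate 2. Of the 5 tested related copies of the members, edgeR and DESeq2 called 0 in either comparison, and 1 in each was lower at an unadjusted p under 0.05.

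Genes that use tryptophan rose at 3 of 7 tested in aig2abc, where 1 fell, beside 18% and 19.5% of all genes. They rose at 5 of 7 in aig2abc pad4 against pad4, where 0 fell, beside 3.34% and 0.663% of all genes. The second count was 3 without pad4 replicate 3, when CYP79B2 and CYP83B1, the next enzyme towards indole glucosinolates, did not pass. CYP83B1 (1.23 ± 0.27; adjusted p = 0.0105) is named after its values were seen, and also lost its call without pad4 replicate 2 (0.0732) and without aig2abc pad4 replicate 1 (0.0626) or 2 (0.0522). CYP79B2, which turns tryptophan into indole-3-acetaldoxime, was at 1.54 ± 0.35 (adjusted p = 0.00334) and 1.46 ± 0.33 (adjusted p = 0.016), the second lost without pad4 replicate 1 (0.0734) or 3 (0.0743). In aig2abc its libraries overlapped those of Col-0, and that call was lost with the replicate-axis covariate (0.0759). The gene that fell in aig2abc was CYP79B3, at -2.07 ± 0.49 (adjusted p = 0.00418), or -0.63 with the covariate (0.457). In the pad4 background CYP79B3 was at 0.07 ± 0.37 (adjusted p = 0.974). CYP83B1 was at -0.33 ± 0.27 in aig2abc (adjusted p = 0.346). CYP71A13, of camalexin synthesis, rose by 5.26 ± 0.37 (adjusted p = 1.56e-07) and 6.73 ± 0.42 (adjusted p = 1.48e-08). Its relative CYP71A12 was at 0.17 ± 0.87 (adjusted p = 0.899) and 4.31 ± 0.73 (adjusted p = 0.00118). PAD3, the last enzyme of camalexin synthesis, rose by 3.61 ± 0.51 in aig2abc (adjusted p = 0.000128), and in the pad4 background 260 counts stood against 2, a ratio of 156 (exact 95% interval from counting error alone, 42.7 to 1290). Among known regulators, MYB51 rose by 3.48 ± 0.37 (adjusted p = 1.11e-05) and 2.73 ± 0.36 (adjusted p = 9.28e-05) and WRKY33 by 2.18 ± 0.36 (adjusted p = 0.000397) and 2.13 ± 0.34 (adjusted p = 0.000618). MYB122, with 0 counts in both controls, was at least 51.8-fold and 13.2-fold higher against a floor of 3 counts over the group, although aig2abc replicate 2 also had 0. In all, 4 of 4 regulators tested rose in aig2abc and 3 of 4 in the pad4 background, beside 18% and 3.34% of all genes. MYB122 is among them, though with 0 counts in both controls it passed the filter on low counts only through groups where it is high. MYB34, ERF1 and ANAC042, also of the 7 listed, were under that filter. MYB34 went the other way, with 5 counts in Col-0, 0 in aig2abc, 21 in pad4 and 1 in aig2abc pad4. ERF1 and ANAC042 had at most 16 counts in a group.

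**Figure D5:**
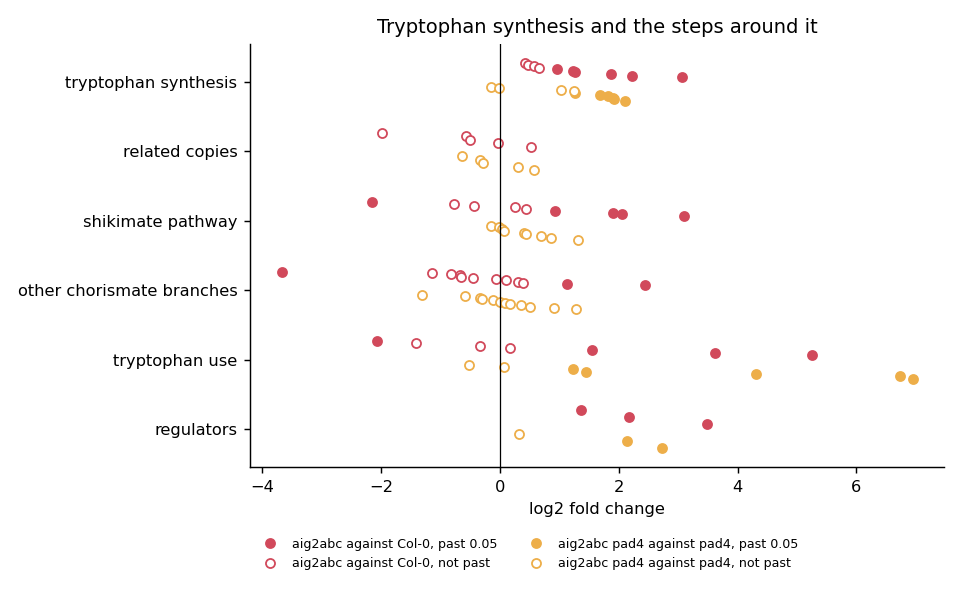
Log2 fold change (horizontal axis) of every tested gene of 6 lists (vertical axis, one point a gene) in aig2abc against Col-0 (red) and aig2abc pad4 against pad4 (yellow), filled where the adjusted p was under 0.05; MYB122, at 0 in the controls, is left out. In the pad4 background 6 of 10 tryptophan synthesis genes and 0 of 9 shikimate pathway genes are filled, where 3.34% of all genes tested rose and 0.663% fell.

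The genes whose levels most resembled the members' mean over the 12 libraries were taken from 12626 other genes, by Pearson's r, as a description. They were YLS5 (0.975), ORA59, an ethylene and jasmonate response factor (0.974), MRD1 (0.966), WRKY45 (0.963), SUFE2 (0.961) and the defensin PDF1.2c (0.959). The libraries fall into genotype groups that all these genes share, and the genes were chosen for this pattern, so no test is given. Their log2 changes with the aig2abc mutations were 3.98 with PAD4 and 4.53 without for ORA59, and 4.35 and 4.51 for WRKY45.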

How the data were processed

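The authors deposited one table of raw counts, whole numbers for each gene and library with no scaling, judged from the column values. STAR, edgeR and the build TAIR10 stand in the submitters' processing notes, without versions; the sources used here give no setting for counting, annotation or strand, so genes that overlap, run antisense or share sequence are uncertain. The pad4 column whose number matches no pad4 title is called pad4 replicate 3. All 12 libraries were used, with 584342 to 10697612 counts, and their number and depth limit the precision.

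The fit used edgeR 4.0.16 under R 4.3.3: filterByExpr left 15082 of 33331 genes, all 10 members among them, TMM scaling, 4 group means over 12 libraries, and a two-sided robust quasi-likelihood F-test, adjusted by Benjamini-Hochberg over all genes within each of 6 comparisons, with a threshold of 0.05. Log2 changes carry standard errors. The common biological coefficient of variation was 28.7%. In counts simulated on these libraries, 100 genes were raised 4-fold and 100 were raised 2-fold with the aig2abc mutations, and no others. The test for aig2abc against Col-0, run on 14752 genes, found 83 and 8 of them, and that for aig2abc pad4 against pad4 found 85 and 13. In the data far more genes changed, with 18% called higher and 19.5% lower in aig2abc against Col-0, and the adjusted p depends on that share. The simulated recovery therefore does not give the power of the tests reported. DESeq2 1.42.0, limma-voom (limma 3.58.1), other scalings and filters, thinning and omissions of single libraries were alternatives. Intervals and floors cover counting error only.

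The members, the lists and the rule for named genes were chosen with earlier results of these data known. Named genes were the 10 members, up to 3 called genes with the smallest p per list and comparison of the aig2abc mutations, and the 6 other genes, of mean log2 CPM 1 or more, most correlated with the members. The genes checked because they overlap a member or are targeted by the mutations were added later. Sequences came from RefSeq TAIR10.1 by locus code with Biopython 1.88, and all 10 members matched. The count table holds no coordinates.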

Additional observations from a re-analysis of the deposited data

Results flagged for a closer look

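Each value here is an interaction, the log2 change with the aig2abc mutations without PAD4 minus that with PAD4, that passed the quasi-likelihood test of edgeR at an adjusted p (Benjamini-Hochberg) of 0.05, so the response differed between the backgrounds by a test of the difference itself. Among the members it was PAI2, at -1.82, and with its copies summed PAI1+PAI2+PAI3, at -1.42. PAI2 rose in both backgrounds by value, by 3.06 with PAD4 (called) and 1.24 without (not called). Each call is adjusted within its own comparison, so the cuts are unlike. Without PAD4 the unadjusted p of PAI2 in the same edgeR test was 0.00255, while IGPS passed with PAD4 at 0.00315.

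Among the genes that supply chorismate, DHS1 was at -1.37, EPSPS at -1.49, the EPSPS-like gene AT1G48860 at -3.12 and DHQ-SDH, the middle enzyme of the shikimate pathway, at 3.47. Of the other chorismate branches, ICS1 was at -1.53 and ADT6 at 3.85. Among genes that use tryptophan, CYP79B3 was at 2.14, CYP71A12 at 4.14, CYP83B1 at 1.56 and PAD3 at 3.34. Several rest on few counts: ADT6 and DHQ-SDH had 4 counts each in all of aig2abc, CYP71A12 had 7 in aig2abc and 6 in pad4, and PAD3 had 2 in pad4. Without pad4 replicate 3, when PAD3 had 0 counts in pad4, its value was 5.62 and depends on the prior count, and without pad4 replicate 1 that of CYP71A12 was 5.72. DHQ-SDH, CYP79B3 and CYP83B1 are named here after their values were seen. With 1 library left out at a time, AT1G48860 and ADT6 kept their calls in all 12 fits, and each of the others lost it in 4 to 10 of them. Where the replicate-axis score entered as covariate, none of the single genes listed passed, and the part of that axis in these differences was not tested.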

How the results depend on the processing

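Thinned to the smallest total, 584342 counts, ASB1, IGPS, TSA1 and TSB1 were the members still tested, and the count of members higher was 2 in aig2abc against Col-0, 3 in aig2abc pad4 against pad4 and 1 in aig2abc pad4 against aig2abc, with 0 lower there and in the interaction. In aig2abc pad4 against Col-0, 7 members were higher with DESeq2, without a filter on low counts, with the replicate block and with the replicate-axis covariate. The interaction had 1 member higher without the filter and with the block. With the covariate, 0 members were lower in aig2abc pad4 against aig2abc and in the interaction. No value that turned its sign was a call in the fit reported, except CM1 in aig2abc against Col-0, at -0.116 with the covariate. In aig2abc pad4 against pad4, PAI1 was at 0.148 with the block and 0.008 with the covariate, and PAI3 at 0.015 with the block. The ASB1 interaction was at 0.022 with RLE size factors, 0.015 with DESeq2, 0.064 without the filter, 0.16 with the block, 0.492 thinned and 0.229 with the covariate, and with the covariate ASA1, TRP1 and TSB1 interactions were at -0.257, -0.472 and -0.003. The cause of these changes was not tested.

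With 1 library left out at a time, members higher numbered 4 to 6 in aig2abc against Col-0, 3 to 6 in aig2abc pad4 against pad4 (3 without pad4 replicate 2), 0 to 2 in aig2abc pad4 against aig2abc with 0 to 1 lower, and 3 to 7 in aig2abc pad4 against Col-0 (3 without Col-0 replicate 2 or aig2abc pad4 replicate 2, 7 without aig2abc pad4 replicate 3). The interaction had 0 to 2 higher and 0 to 2 lower, with 2 of each without aig2abc pad4 replicate 3. PAI3 ran from -0.162 to 0.983 in aig2abc against Col-0, from -0.301 to 0.138 in aig2abc pad4 against pad4 and from -1.122 to 0.044 in the interaction, PAI1 from -0.302 to 0.241 in aig2abc pad4 against pad4, and the ASB1 interaction from -0.24 to 0.205. The summed PAI interaction ran from -1.602 to -1.159, and the summed TSB1 and TSB2 change in aig2abc pad4 against pad4 from 1.114 to 1.407, with the call lost in 3 omissions. The log2 ratio of ASA1 to ASA2 ran from 1.366 to 1.811. ASB1 and TSA1 kept their calls in all 12 omissions in both backgrounds, as did PAI2 in aig2abc against Col-0 and IGPS in aig2abc pad4 against pad4.

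Of 1534 values of single genes under an alternative, 1336 kept direction and side of the threshold, 145 lost the call, 29 gained it and 24 turned sign. The labels do not say whether replicate numbers pair the libraries. Deviations from the group means correlated at 0.515 to 0.55 between the replicate 1 libraries of Col-0, pad4 and aig2abc pad4. Over all same-numbered libraries of different genotypes the correlations were -0.273 to 0.55, and over differently numbered ones -0.639 to 0.464. The replicate block, fitted without pad4 replicate 3, left 6 members higher in aig2abc against Col-0 and 5 in aig2abc pad4 against pad4, where TRP1 had an adjusted p of 0.0534. TRP1 in aig2abc against Col-0 had an adjusted p of 0.0571 with RLE, 0.062 with limma-voom and 0.0626 without the filter. Depth limits aig2abc most, since its replicate 2 held 1 to 19 counts for 9 of the 10 members.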
